A study of Homo sapiens with 24 samples.

Results

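The response of U937 cells to the inhibitor UNC0638 was set against their response to knockdown of SUV39H1, gene by gene and repeat by repeat. The measure was a difference of log2 changes: the change at 4 µM UNC0638 from DMSO, less the mean change of SUV39H1 hairpins 2 and 4 from the scrambled hairpin. This used 15 of the 24 libraries of the series, 3 in each of 5 groups. A positive difference means that the inhibitor moved a gene further up, or less far down, than the knockdown did, and a negative difference means the reverse.

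U937 is an established human line of monocyte-like leukaemic cells. UNC0638 blocks the catalytic site of G9a (EHMT2) and GLP (EHMT1), which add methyl groups to lysine 9 of histone H3. SUV39H1 adds further methyl groups at the same lysine, mainly in repeat-rich heterochromatin. A short hairpin RNA lowers the mRNA of the gene it targets, and SUV39H1 protein was not measured in these data. Loss of these marks is known to let endogenous repeats be transcribed, and double-stranded RNA from repeats can be read by the sensors RIG-I and MDA5. These sensors switch on interferon genes, and secreted interferon acts through JAK kinases, STAT proteins and IRF9 on the interferon-stimulated genes. The series was made to examine that route after disruption of the G9a, GLP and SUV39H1 complex.

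In the inhibitor arm, the control cells had DMSO (titled Mock) and the treated cells 4 µM UNC0638, with harvest of the treated cells after 3 days. In the knockdown arm, the control cells carried a scrambled hairpin and the treated cells SUV39H1 hairpin 2 or hairpin 4, delivered by lentivirus, with 3 days of puromycin selection. The labels state no harvest time for the DMSO cells, no separate selection for the scrambled cells and no cloning of transduced cells. No group received both treatments, and each arm had its own control, so a gap between the controls enters every difference. The labels do not say whether the 3 libraries of a group came from separate cultures, so p-values measure only the spread between these libraries.

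The 15 libraries held 31545854 to 53803704 gene counts. After a filter on low counts, 20147 of 55773 gene names were tested. Values are given as CPM, counts scaled to the size of each library, and changes as log2 with the standard error (SE). A gene was called higher or lower when its Benjamini-Hochberg adjusted p, from the quasi-likelihood test of edgeR with all genes tested together, was under 0.05. The defining genes of the myelomonocytic list were present in every group, with summed levels from 1772 CPM in a scrambled library to 3218 CPM in a hairpin 2 library. Of 11 lymphoid, 11 erythroid and 11 epithelial and fibroblast markers, 4, 3 and 3 were tested, and CD7, HBA2, HBG1, HBZ, KRT19 and COL3A1 had no count in any of the 15 libraries. The summed lymphoid level ran from 171 to 226 CPM, most of it NKG7, and the summed erythroid level from 10.7 to 14 CPM.

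SUV39H1 mRNA separated the arms as the labels say. It stood at 51.7, 58.7 and 60.2 CPM in the DMSO libraries and at 48.4, 51.6 and 55.2 CPM with UNC0638. In the scrambled libraries it was 59.8, 56.5 and 58.3 CPM, against 18.2, 18.9 and 18.9 CPM with hairpin 2 and 20.4, 19.8 and 23.2 CPM with hairpin 4. The knockdown groups did not overlap their control, whereas the inhibitor and DMSO groups did. The fall with knockdown was -1.55 (SE 0.05, adjusted p = 7.3e-19, edgeR) and the inhibitor's change of -0.14 (SE 0.06) did not pass the test (adjusted p = 0.12, edgeR). The closely related enzyme SUV39H2 also fell with knockdown, by 0.92 (SE 0.06), and GLP's gene EHMT1 fell by 0.56 (SE 0.04), while neither passed with the inhibitor. The G9a gene EHMT2 fell by 0.28 (SE 0.06) with knockdown, and its difference between arms of 0.14 (SE 0.09) did not pass (adjusted p = 0.15, edgeR).

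The knockdown moved many more genes than the inhibitor. The inhibitor called 2052 genes higher and 1960 lower (10.2% and 9.73% of those tested), of which 315 and 60 changed at least 2-fold. The knockdown called 7077 higher and 6581 lower (35.1% and 32.7%), of which 1482 and 425 changed at least 2-fold. The difference of log2 changes was called positive for 5667 genes and negative for 5965 (28.1% and 29.6%). The controls themselves differed: 2993 genes were higher and 3328 lower in scrambled than in DMSO cells (14.9% and 16.5%). When treated groups were compared directly, 4 µM UNC0638 against the mean of the hairpins, 5056 of the 5667 positive differences and 5033 of the 5965 negative ones were called in the same direction. Both measures use the same treated libraries, so the second is no separate evidence.

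Genes that rose with the inhibitor included both risers and fallers with knockdown, and more of the genes that fell with it rose than fell with knockdown. Of the 2052 genes that rose with the inhibitor, 831 (40.5%) also rose with knockdown and 803 (39.1%) fell with it, beside 35.1% and 32.7% of all genes tested. The 831 genes were 11.7% of the knockdown's risers and 4.12% of the genes tested, and the 803 were 3.99%. Among the 315 genes that rose at least 2-fold with the inhibitor, 151 (47.9%) rose with knockdown and 51 (16.2%) fell. Of the 1960 genes that fell with the inhibitor, 475 (24.2%) also fell with knockdown and 1056 (53.9%) rose, which is 2.36% and 5.24% of the genes tested. These counts moved with single DMSO libraries. Without DMSO replicate 1, 1013 genes rose in both arms and 1305 rose with the inhibitor and fell with knockdown, 789 fell in both and 1273 did the reverse. Without DMSO replicate 2 the counts in this order were 718, 526, 334 and 783, and without DMSO replicate 3 they were 673, 489, 333 and 667, so the balance between risers and fallers turned with the library left out. Across the 20147 genes, which are not independent replicates, Pearson's r between the arms' log2 changes was 0.08 and Spearman's rho was -0.11. Over the 84 interferon-stimulated genes tested, r was 0.75 and rho 0.78.

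**Figure D1:**
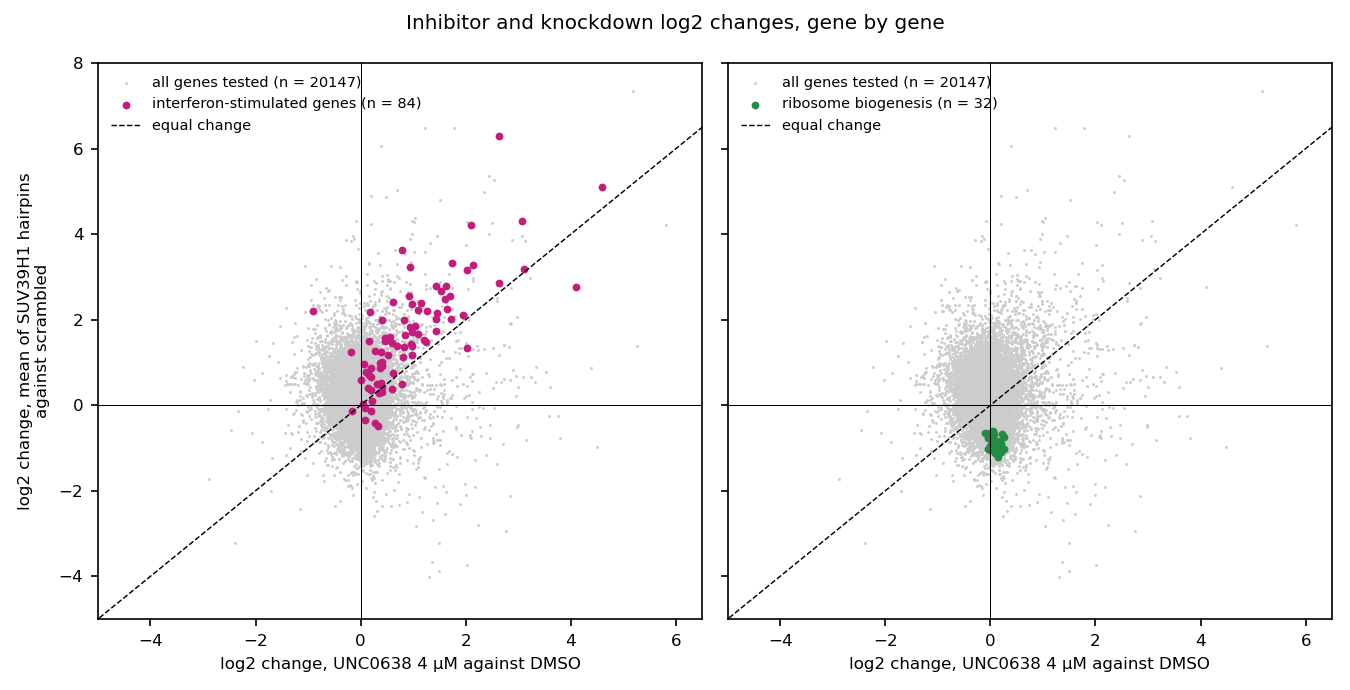
Each point is a gene, with its log2 change at 4 µM UNC0638 from DMSO on the x axis and its mean log2 change with SUV39H1 hairpins 2 and 4 from the scrambled hairpin on the y axis. Interferon-stimulated genes (left, n = 84) spread upward and to the right, mostly above the line of equal change, while the 32 ribosome biogenesis genes (right) lie below the line, between -1.21 and -0.60 on the y axis.

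Interferon-stimulated genes gave the most shared rises of the lists examined. Of 88 listed, 84 were tested, and EPSTI1, CXCL9, RTP4 and IDO1 were too low. The inhibitor raised 65 and lowered 0 (median change 0.79), and the knockdown raised 76 and lowered 3 (median 1.51), beside medians of -0.01 and 0.03 over all genes tested. In all, 62 rose in both arms. Another 14 rose with knockdown only, and NMI rose with the inhibitor only. MX2 and PNPT1 rose with the inhibitor and fell with knockdown. The size of the response was mostly larger with knockdown: the difference was negative for 61 of the 84 and positive for 7, with a median of -0.62, beside 29.6% and 28.1% of all genes. Part of that gap stood in the controls, since 53 of the 84 were lower and 5 higher in scrambled than in DMSO cells (median -0.28). Compared directly, 60 were lower and 14 higher at 4 µM UNC0638 than in the mean of the hairpins (33.3% and 32.7% of all genes).

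The hairpins differed from each other more than their mean shows. Hairpin 2 raised 77 of the 84 (median 2.01) and hairpin 4 raised 71 (median 0.97), beside 34.5% and 31.8% of all genes raised. Hairpin 2 stood above hairpin 4 for 79 genes and below it for 1 (20.9% and 22% of all genes). Both hairpins were set against the same scrambled libraries. Against hairpin 2 alone, the difference of log2 changes was negative for 71 and positive for 2 (median -1.17, with 30.3% and 28.7% of all genes). Against hairpin 4 alone it was negative for 36 and positive for 21 (median -0.15, with 27.4% and 25.8% of all genes). By level, 73 of the 84 were lower at 4 µM UNC0638 than in hairpin 2 cells and 4 higher (32.8% and 31.8% of all genes), whereas 23 were lower and 40 higher than in hairpin 4 cells (29.5% and 30.2%). The inhibitor's place relative to the knockdown therefore depended on the hairpin.

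SIGLEC1, a macrophage receptor that binds sialic acids, gave one of the largest shared rises. Its levels were 5.55, 6.28 and 7.82 CPM in DMSO and 54.6, 54.6 and 57.7 CPM with UNC0638. They were 6.85, 6.74 and 7.48 CPM in scrambled cells, 218, 224 and 231 CPM with hairpin 2, and 80.4, 84.5 and 90.2 CPM with hairpin 4. Control groups overlapped each other, and every treated group stood apart from every other. The inhibitor's rise of 3.08 (SE 0.08) was smaller than the knockdown's 4.30 (SE 0.07), a difference of -1.22 (SE 0.11, adjusted p = 2.6e-10, edgeR). It was also smaller than that of each hairpin alone, with differences of -1.92 (SE 0.11) and -0.52 (SE 0.11).

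The 2′,5′-oligoadenylate synthetases make the activator of RNase L, which cuts viral and cellular RNA. OAS1 stood at 15.7, 16 and 17.6 CPM in DMSO, 64.6, 67.3 and 68.8 CPM with UNC0638, and 10.4, 10.2 and 9.89 CPM in scrambled cells. With hairpin 2 it was 160, 159 and 163 CPM and with hairpin 4 it was 52.1, 49.4 and 51.7 CPM. The UNC0638 libraries thus lay between those of the hairpins without overlap. OAS1 rose by 2.02 (SE 0.05) with the inhibitor and by 3.15 (SE 0.05) with knockdown, and the scrambled control was 0.69 (SE 0.06) below DMSO. OAS2 rose by 3.11 (SE 0.16) and 3.18 (SE 0.18), a difference of -0.07 (SE 0.29, adjusted p = 0.86, edgeR). That mean hid the hairpins' 4.93 and 1.43, so the difference was -1.82 (SE 0.30) against hairpin 2 and 1.68 (SE 0.34) against hairpin 4, both called.

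IFI6, a mitochondrial protein induced by type I interferon, showed the largest gap between arms of the 12 genes named for their shared rise. It rose from 106, 93.5 and 92.3 CPM in DMSO to 447, 410 and 393 CPM with UNC0638. In the knockdown arm it rose from 38.9, 35.9 and 35.0 CPM to 1256, 1277 and 1168 CPM with hairpin 2 and to 387, 382 and 359 CPM with hairpin 4. The libraries of UNC0638 stood just above those of hairpin 4, without overlap. The inhibitor's change was 2.10 (SE 0.07) and the knockdown's 4.22 (SE 0.07), a difference of -2.12 (SE 0.09, adjusted p = 5.4e-16, edgeR). The scrambled level was 1.41 (SE 0.07) below DMSO, so the direct comparison of treated levels gave -0.71 (SE 0.06), and against hairpin 4 alone the levels did not pass the test, at 0.15 (SE 0.07, adjusted p = 0.052, edgeR).

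ISG15, a ubiquitin-like protein joined to other proteins after interferon, kept the arms close. It was 38.2, 41.1 and 40.9 CPM in DMSO and 130, 130 and 134 CPM with UNC0638. It was 29.2, 27.3 and 28.5 CPM in scrambled cells, 203, 228 and 184 CPM with hairpin 2, and 61.8, 69.8 and 62.4 CPM with hairpin 4. No groups overlapped. The changes were 1.71 (SE 0.06) and 2.02 (SE 0.06), with a difference of -0.31 (SE 0.09, adjusted p = 0.0026, edgeR) that was -1.14 against hairpin 2 and 0.52 against hairpin 4. The treated levels compared directly gave 0.19 (SE 0.05), the other direction. UBA7, the enzyme that activates ISG15, went apart. It did not pass with the inhibitor, at 0.17 (SE 0.07, adjusted p = 0.08, edgeR), and rose by 2.17 (SE 0.06) with knockdown. Its levels were 17.9, 21.0 and 22.8 CPM in DMSO, 22.6, 23.7 and 23.1 CPM with UNC0638 and 50.3 to 80.3 CPM over the 6 hairpin libraries. USP18, which removes ISG15, rose in both arms, by 1.09 (SE 0.06) and 1.67 (SE 0.06).

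IFI27, another mitochondrial interferon-induced protein, was the gene of the list with the largest positive difference. It rose from 0.519, 0.571 and 0.486 CPM in DMSO to 8.67, 8.95 and 9.34 CPM with UNC0638. In scrambled cells it was 0.332, 0.335 and 0.540 CPM, with hairpin 2 it was 6.62, 7.14 and 6.83 CPM, and with hairpin 4 it was 0.874, 1.21 and 1.27 CPM. Every UNC0638 library stood above every hairpin library. The difference was 1.33 (SE 0.24, adjusted p = 3.1e-05, edgeR), but against hairpin 2 alone it was 0.02 (SE 0.26) and did not pass (adjusted p = 0.96, edgeR). The remaining positive differences were IFITM2, MX2, BST2, PNPT1, CXCL10 and LAP3. BST2 (tetherin) rose by 0.59 and 0.37 and LAP3 by 0.79 and 0.50 in the inhibitor and knockdown arms. Against hairpin 2 alone BST2 and CXCL10 had negative differences, at -0.13 (SE 0.05) and -0.47 (SE 0.17), and LAP3 and IFITM2 did not pass. MX2 and PNPT1 kept positive differences there. IFITM2 did not pass with the inhibitor either, at 0.08 (SE 0.10). For CXCL10, a chemokine for T cells, the scrambled control was 1.18 (SE 0.14) above DMSO, and its treated level was lower with UNC0638 than in the hairpin mean, by -0.48 (SE 0.09).

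Of the other genes named for a shared rise, IFI44L had 6 counts in all over the DMSO libraries and 6 over the scrambled ones, too few for a fold change. It had 172 with UNC0638, 1018 with hairpin 2 and 53 with hairpin 4. The chemokine CXCL11 rose by 1.94 (SE 0.15) and 2.10 (SE 0.13), a difference of -0.16 (SE 0.22) that did not pass (adjusted p = 0.55, edgeR), though it was -1.54 against hairpin 2 and 1.22 against hairpin 4. SLAMF7, a receptor of lymphoid and myeloid cells, rose by 2.14 (SE 0.14) and 2.89 (SE 0.14). SUCNR1, the succinate receptor, is on no list of interferon genes used here, and it rose by 1.73 (SE 0.08) and 2.73 (SE 0.08). IFIT5, which binds RNA, rose by 2.13 (SE 0.11) and 3.28 (SE 0.10), and IFI44 by 1.74 (SE 0.09) and 3.32 (SE 0.10).

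The smaller groups of the list differed in how far the inhibitor went. All 7 TRIM genes tested rose in both arms, with negative differences for 6, and so did all 5 genes of the PARP9 group, with 5 negative. TRIM22, an antiviral ligase, rose by 1.44 (SE 0.06) and 2.8 (SE 0.06), and the ADP-ribosyltransferase PARP14 by 1.03 (SE 0.04) and 1.84 (SE 0.04). All 4 nuclear body genes rose in both arms, with 4 negative differences. Of 6 genes of the SAMD9 and Schlafen group, 3 rose with the inhibitor and 5 with knockdown, and of 7 IFIT and IFITM genes 4 rose in each arm.

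The guanylate-binding proteins, GTPases that attack pathogen membranes, responded mostly to knockdown. Of 5 tested, 5 rose with knockdown (median 2.36) and 2 with the inhibitor (median 0.78), beside 35.1% and 10.2% of all genes. These counts and medians include GBP1 and GBP4, which were barely detected in the controls. GBP4 had 2 counts in all over DMSO, 1 over UNC0638, 6 over scrambled, 77 over hairpin 2 and 12 over hairpin 4. It exceeded the filter's minimum count of 10 with hairpin 2 only and did not pass with hairpin 4, so its call is tied to that filter. GBP5 was 1.83, 1.52 and 1.88 CPM in DMSO and 3.51, 3.76 and 3.23 CPM with UNC0638. It was 1.69, 1.06 and 1.30 CPM in scrambled cells, 12.3, 12.4 and 11.3 CPM with hairpin 2 and 3.64, 4.04 and 3.73 CPM with hairpin 4. Treated and control groups did not overlap in either arm, and the UNC0638 and hairpin 4 ranges overlapped. Its difference was -1.38 (SE 0.17, adjusted p = 1.3e-07, edgeR). GBP2 rose by 3.62 (SE 0.23) with knockdown and its inhibitor change of 0.78 (SE 0.28) did not pass (adjusted p = 0.052, edgeR). Its control levels were low, with means of 0.279 CPM in DMSO and 0.136 CPM in scrambled cells. GBP1 had 5 counts in all over DMSO, 37 over UNC0638, 2 over scrambled, 405 over hairpin 2 and 97 over hairpin 4, too few in the controls for a fold change.

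**Figure D2:**
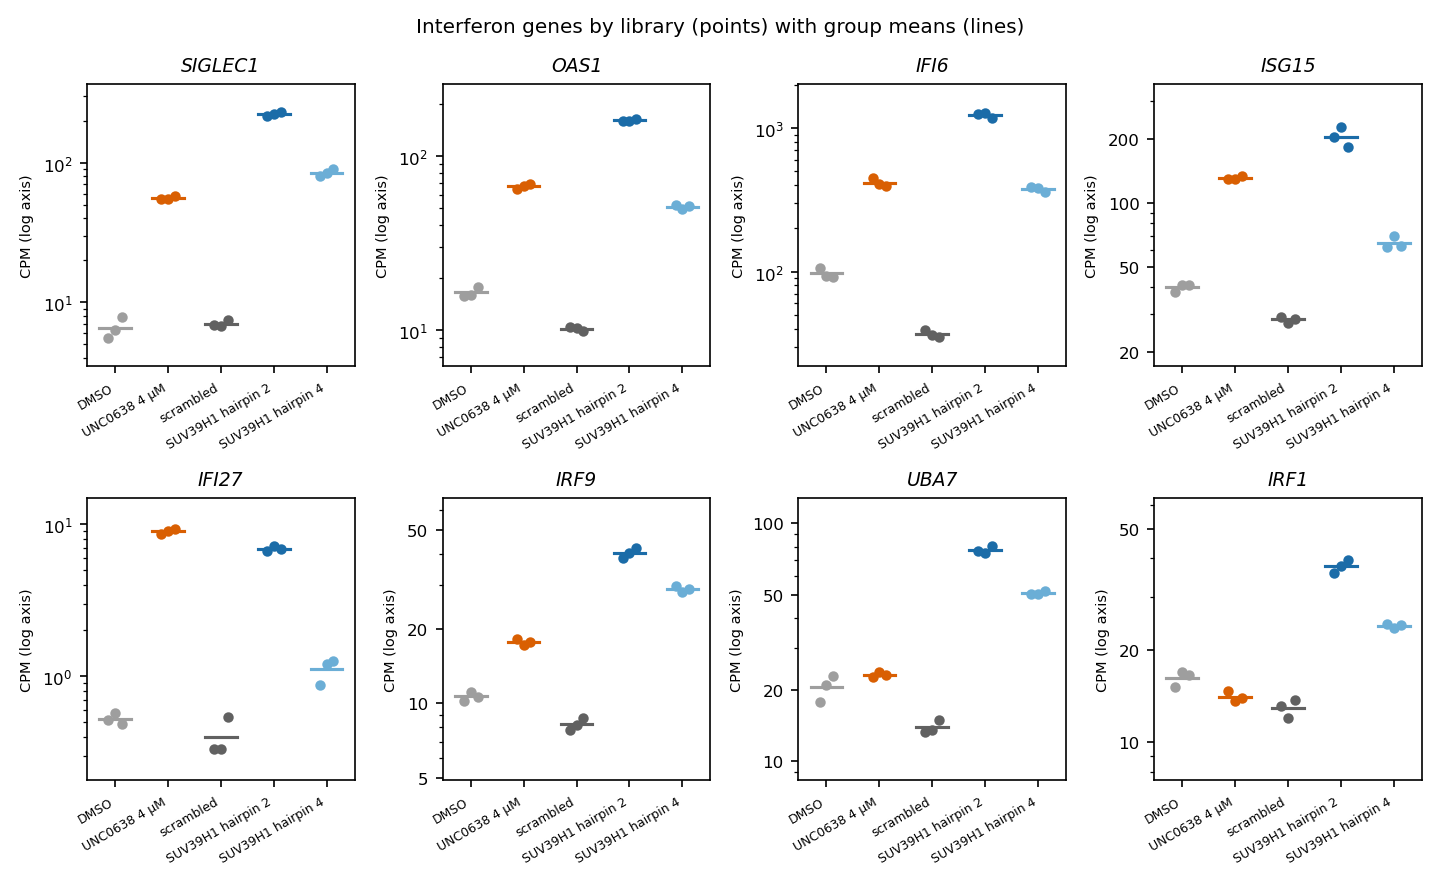
CPM on a log axis of 8 interferon genes in the 15 libraries, 3 points a group, with a line at each group's mean. For OAS1 and ISG15 the UNC0638 points lie between those of hairpins 2 and 4, for IFI27 they lie above both, for IRF9 they lie above the controls and below both hairpins, and for UBA7 and IRF1 they lie near the control points.

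Promoter letters were read from RefSeq promoters on GRCh38.p14, a build other than that of the files, over the 250 bases before the start of transcription. The letters searched, on both strands, were the interferon-stimulated response element (ISRE), read as GAAA, any 2 bases and GAAA, and the gamma-activated site (GAS), read as TTC, any 3 bases and GAA. A complex of STAT proteins and IRF9 binds the first, and paired STAT proteins the second. Of the 62 interferon-stimulated genes that rose in both arms, 51 had a promoter in the table (82.3%), and 26 of these (51%) held the ISRE letters, beside 3.02% of the 35093 promoters of the table. The GAS letters stood in 8 of the 51 (15.7%), beside 6.57% of all promoters. The list was made of genes known to respond to interferon, so these shares describe the list and not the shared rise. Listed genes that did not rise in both arms were not compared. Over all 831 genes higher in both arms, 581 (69.9%) had an entry, too few for a share to be read. The 4 promoters below are the first 4 with ISRE letters among the named shared risers of the interferon-stimulated list. Those genes were ordered by the smaller of their 2 changes. Matches to the ISRE are marked in capitals, and the letters run 5′ to 3′ on the gene's strand. They are IFI44L (chr1:78620198-78620447, plus strand), IFI27 (chr14:94110486-94110735, plus strand), IFIT5 (chr10:89414318-89414567, plus strand) and IFI6 (chr1:27672193-27672442, minus strand).
IFI44L: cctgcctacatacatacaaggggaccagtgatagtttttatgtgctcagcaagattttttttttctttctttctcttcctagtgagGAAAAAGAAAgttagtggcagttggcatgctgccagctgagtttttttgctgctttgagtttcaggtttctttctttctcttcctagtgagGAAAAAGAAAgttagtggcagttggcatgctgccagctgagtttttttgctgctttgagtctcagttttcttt
IFI27: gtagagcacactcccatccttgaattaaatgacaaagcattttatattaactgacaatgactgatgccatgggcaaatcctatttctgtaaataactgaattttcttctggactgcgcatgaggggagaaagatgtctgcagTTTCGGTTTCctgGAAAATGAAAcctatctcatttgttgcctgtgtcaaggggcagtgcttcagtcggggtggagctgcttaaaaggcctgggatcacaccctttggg
IFIT5: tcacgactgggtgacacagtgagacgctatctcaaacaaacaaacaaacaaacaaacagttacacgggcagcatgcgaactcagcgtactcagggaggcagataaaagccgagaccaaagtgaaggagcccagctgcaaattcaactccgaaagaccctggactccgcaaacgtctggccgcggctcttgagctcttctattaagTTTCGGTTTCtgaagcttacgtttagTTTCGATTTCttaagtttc
IFI6: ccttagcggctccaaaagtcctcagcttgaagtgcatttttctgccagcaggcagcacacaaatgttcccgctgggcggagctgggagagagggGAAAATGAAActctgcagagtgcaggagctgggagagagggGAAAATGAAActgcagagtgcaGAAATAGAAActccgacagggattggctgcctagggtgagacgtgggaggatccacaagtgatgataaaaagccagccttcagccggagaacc
IFI44L and IFIT5 hold 2 ISRE matches each. IFI27 holds 2 that lie close together, beginning 108 and 95 bases before the start. IFI6 holds 3, beginning 156, 115 and 93 bases before the start. Neither these letters nor the GAS letters were found in the same window of FRMPD2 and NTRK3 or of CCR2 and LILRA5, the genes with the most positive and most negative differences. A match is a description of the letters and not a measured binding site.

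The genes of interferon signalling itself changed mainly with knockdown. Of 29 listed, 24 were tested. The inhibitor raised 6 and lowered 3 (median 0.05), which is 25% and 12.5% beside 10.2% and 9.73% of all genes. The knockdown raised 19 and lowered 2 (median 0.52), which is 79.2% and 8.33% beside 35.1% and 32.7%. The difference was negative for 16 and positive for 2 (66.7% and 8.33%, beside 29.6% and 28.1%). Among the ligands, IFNB1 was the only gene that passed the filter, with 3, 5 and 2 counts in DMSO, 7, 11 and 6 with UNC0638 and 5, 5 and 2 in scrambled cells. Hairpin 2 libraries held 26, 24 and 30 counts and hairpin 4 libraries 11, 12 and 6. Of the compared groups, only hairpin 2 held more than the filter's minimum count of 10 in every library. The knockdown call of IFNB1, at 1.88 (SE 0.38, adjusted p = 9.7e-05, edgeR), is therefore tied to that filter, and its control counts were few. The inhibitor change of 1.07 (SE 0.51) did not pass (adjusted p = 0.15, edgeR), and nor did the difference of -0.81 (SE 0.71, adjusted p = 0.34, edgeR). Against hairpin 2 alone the difference was -1.74 (SE 0.72, adjusted p = 0.04, edgeR) and called, and against hairpin 4 alone it was 0.12 (SE 0.70). The direct comparison of treated levels gave -1.05 (SE 0.32, adjusted p = 0.0052, edgeR), and hairpin 4's own rise of 0.95 (SE 0.47) did not pass. IFNG had no count in any of the 15 libraries.

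Of the receptors, the interferon gamma receptor chain IFNGR1 rose in both arms, by 0.30 (SE 0.07) and 0.45 (SE 0.06). IFNAR1 and IFNAR2, the chains of the type I receptor, rose with knockdown, by 0.34 and 0.45, and did not pass with the inhibitor, with differences of -0.28 (SE 0.07) and -0.43 (SE 0.05). For IFNAR1 the treated levels compared directly did not pass, at 0.00 (SE 0.04), with a control gap of -0.27 (SE 0.05). IL10RB, shared by the receptors of interleukin 10 and type III interferon, rose by 0.87 (SE 0.03) with knockdown against -0.01 (SE 0.04). IFNGR2 did not pass in either arm. All 3 kinases that receptors carry rose with knockdown and had negative differences (median -0.55), against each hairpin alone as well. JAK1 rose by 0.42 (SE 0.04) with knockdown against 0.00 with the inhibitor, and TYK2 rose by 0.35 (SE 0.05) and fell by 0.19 (SE 0.06).

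Of 11 transcription factors of the pathway, 9 rose with knockdown and 5 with the inhibitor, and the difference was negative for 8 and positive for 1 (median -0.53). IRF9, the DNA-binding partner of STAT2, was 10.2, 11.1 and 10.6 CPM in DMSO and 18.2, 17.1 and 17.6 CPM with UNC0638. It was 7.81, 8.2 and 8.73 CPM in scrambled cells, 38.7, 40.4 and 42.3 CPM with hairpin 2 and 29.8, 28.1 and 28.8 CPM with hairpin 4. No groups overlapped, and the UNC0638 libraries lay between DMSO and hairpin 4. STAT2 and IRF9 rose by 0.59 and 0.73 with the inhibitor and by 1.95 and 2.05 with knockdown, with differences of -1.36 (SE 0.07) and -1.32 (SE 0.07) that were also called against each hairpin. IRF7, which amplifies interferon production, rose by 1.32 (SE 0.06) and 2.73 (SE 0.06). IRF1, which drives many genes of the interferon gamma response, moved in opposite directions. It was 15.2, 16.9 and 16.7 CPM in DMSO, 14.7, 13.6 and 14 CPM with UNC0638, and 13.1, 12.0 and 13.8 CPM in scrambled cells. With hairpin 2 it was 35.7, 37.9 and 39.6 CPM and with hairpin 4 it was 24.4, 23.7 and 24.1 CPM. IRF1 fell by 0.20 (SE 0.06, adjusted p = 0.017, edgeR) with the inhibitor and rose by 1.22 (SE 0.05) with knockdown. IRF8, a factor of the monocyte lineage, fell in both arms, by 0.27 (SE 0.04) and 0.70 (SE 0.04). The feedback inhibitor SOCS1 rose by 1.59 (SE 0.10) with knockdown, against 0.21 (SE 0.13, adjusted p = 0.38, edgeR).

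The rise of sensors of foreign RNA was shared, while 3 of the 5 adaptors on the nucleic acid sensing list rose with knockdown only. Of 18 genes tested, the inhibitor raised 7 and lowered 0, the knockdown raised 11 and lowered 4, and the difference was negative for 9 and positive for 3 (50% and 16.7%, beside 29.6% and 28.1% of all genes). All 4 RNA sensors tested, DDX58, IFIH1, DHX58 and TLR3, rose in both arms. IFIH1, which encodes MDA5, was 71.6, 68.0 and 68.0 CPM in DMSO and 124, 125 and 123 CPM with UNC0638. It was 56.6, 57.0 and 57.6 CPM in scrambled cells, 229, 222 and 222 CPM with hairpin 2 and 115, 114 and 114 CPM with hairpin 4. It rose by 0.84 (SE 0.03) and 1.49 (SE 0.03). DDX58, which encodes RIG-I, rose by 1.24 and 1.82, and its treated levels compared directly did not pass, at -0.04 (SE 0.05, adjusted p = 0.46, edgeR). Of 5 adaptors, 4 rose with knockdown and MYD88, the adaptor of most Toll-like receptors, with the inhibitor as well. TMEM173, which encodes STING, rose with knockdown by 0.51 (SE 0.05) and was at -0.03 (SE 0.05) with the inhibitor. The nuclease TREX1, which clears cytosolic DNA, rose by 0.59 (SE 0.06) against -0.05 (SE 0.07).

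Within class I antigen presentation, the chains and peptide trimmers differed between arms in 1 direction and the loading and proteasome genes in both. Of 22 class I genes, the inhibitor raised 14 and lowered 1 and the knockdown raised 17 and lowered 5, with 15 negative and 6 positive differences (68.2% and 27.3%, beside 29.6% and 28.1% of all genes). All 7 class I chains rose with knockdown (median 1.11) and 6 with the inhibitor (median 0.35), and the difference was negative for 7. HLA-B was 581, 632 and 653 CPM in DMSO, 853, 843 and 898 CPM with UNC0638, and 480, 472 and 498 CPM in scrambled cells. It was 1366, 1416 and 1388 CPM with hairpin 2 and 1006, 1015 and 1049 CPM with hairpin 4. It rose by 0.47 (SE 0.04) and 1.30 (SE 0.04), a difference of -0.83 (SE 0.05, adjusted p = 3.6e-13, edgeR). The HLA chains are near-identical copies of each other, so counts may be split among them. The peptide trimmers ERAP1 and ERAP2 rose by 1.06 (SE 0.04) and 1.34 (SE 0.09) with knockdown, against 0.07 (SE 0.04) and -0.03 (SE 0.10). Of 7 peptide loading genes, 4 rose and 3 fell with knockdown, 4 rose with the inhibitor, and 4 differences were positive and 3 negative. TAP1, a subunit of the peptide transporter, rose in both arms, by 0.48 (SE 0.04) and 0.83 (SE 0.03), while CALR, the chaperone calreticulin, fell by 0.49 (SE 0.05) with knockdown against 0.10 (SE 0.06). Of 5 immunoproteasome genes, 3 rose and 2 fell with knockdown, with 2 positive and 2 negative differences. Among them PSMB9 rose by 0.35 (SE 0.05) and 0.84 (SE 0.05), and PSMB8 rose by 0.25 (SE 0.03) and fell by 0.15 (SE 0.03).

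Of 12 class II genes tested, the inhibitor raised 9 and lowered 0 (75% raised, beside 10.2% of all genes). The knockdown raised 6 and lowered 2 (50% and 16.7%, beside 35.1% and 32.7%). Differences were positive for 4 and negative for 5 (33.3% and 41.7%, beside 28.1% and 29.6%). The hairpins were unlike: hairpin 2 raised 8 and lowered 0 (median 1.19), and hairpin 4 raised 6 and lowered 3 (median 0.19). HLA-DRA was 29.5, 30.4 and 28.9 CPM in DMSO and 69.1, 64.7 and 64.8 CPM with UNC0638. In the knockdown arm it was 42.9, 43.3 and 40.8 CPM in scrambled cells, 50.6, 54.6 and 56.1 CPM with hairpin 2 and 35.4, 34.9 and 36.4 CPM with hairpin 4. The hairpins lay on either side of their control, and UNC0638 above all. HLA-DRA rose by 1.16 (SE 0.06) with the inhibitor against 0.05 (SE 0.05) with knockdown, and HLA-DPA1 and HLA-DPB1 rose by 1.81 (SE 0.17) and 2.11 (SE 0.19) and fell by 0.52 (SE 0.13) and 0.60 (SE 0.17), falls that did not pass with hairpin 2 alone. The scrambled controls were above DMSO for all of these, by 0.52, 1.49 and 1.06. CD74, the invariant chain, went the other way, at -0.08 (SE 0.10) with the inhibitor and a rise of 0.85 (SE 0.09) with knockdown.

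Monocyte and macrophage genes rose further with knockdown than with the inhibitor. Of 22 markers tested, the knockdown raised 20 and lowered 1 (median 1.73), which is 90.9% and 4.55% beside 35.1% and 32.7% of all genes. The inhibitor raised 12 and lowered 2 (median 0.24), which is 54.5% and 9.09% beside 10.2% and 9.73%. The difference was negative for 16 and positive for 2, with a median of -1.11. The scrambled control was below DMSO for 13 of the 22 and above it for 3 (median -0.32). Compared directly, 16 were lower and 3 higher at 4 µM UNC0638 than in the mean of the hairpins. LYZ, which encodes lysozyme, was 332, 309 and 292 CPM in DMSO, 319, 303 and 305 CPM with UNC0638, and 488, 480 and 453 CPM in scrambled cells. It was 2503, 2484 and 2442 CPM with hairpin 2 and 1336, 1320 and 1298 CPM with hairpin 4. UNC0638 overlapped DMSO, and both hairpin groups stood far above every other library. LYZ rose by 1.93 (SE 0.04) with knockdown against -0.01 (SE 0.04), a difference of -1.94 (SE 0.06, adjusted p = 8.3e-19, edgeR). The integrins ITGAM (CD11b) and ITGAX (CD11c) rose by 2.03 (SE 0.05) and 2.08 (SE 0.07) with knockdown and did not pass with the inhibitor. The scavenger receptor CD36 was an exception: it rose by 1.37 (SE 0.06) with the inhibitor, did not pass with hairpin 2 at -0.05 (SE 0.06), and fell by 1.49 (SE 0.06) with hairpin 4. In bulk RNA, more cells of a type and more RNA per cell cannot be told apart.

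Several of the genes with the most negative differences encode receptors of myeloid cells. CCR2, the receptor that draws monocytes out of marrow, was 0.879, 1.14 and 0.867 CPM in DMSO and 0.563, 0.367 and 0.421 CPM with UNC0638. In scrambled cells it was 1.33, 1.32 and 1.42 CPM, with hairpin 2 it was 30.8, 31.7 and 32.5 CPM, and with hairpin 4 it was 4.95, 5.82 and 5.40 CPM. It fell by 1.06 (SE 0.19) with the inhibitor and rose by 3.26 (SE 0.09) with knockdown, a difference of -4.33 (SE 0.21, adjusted p = 5.6e-15, edgeR). Behind it came LILRA5, an activating leukocyte receptor (-4.01, SE 0.21), the haem oxygenase HMOX1 (-3.62, SE 0.09), the transporter SLCO2B1 (-3.29, SE 0.15) and CLEC7A, the fungal glucan receptor dectin-1 (-3.29, SE 0.52). The receptors TLR6 and FPR1 and the inflammasome protein NLRC4 followed, with differences of -3.21, -3.18 and -3.09. SLCO2B1 and CLEC7A rose with the inhibitor too, by 1.00 (SE 0.10) and 1.51 (SE 0.34), and TLR6, FPR1, NLRC4 and LILRA5 did not pass there.

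For HMOX1 the difference rested on the controls. It was 94.9, 106 and 115 CPM in DMSO, 77.0, 79.4 and 85.2 CPM with UNC0638, 75.2, 75.8 and 74.3 CPM with hairpin 2 and 90.2, 93.3 and 89.8 CPM with hairpin 4. Only the scrambled libraries stood apart, at 9.05, 8.65 and 8.73 CPM. The scrambled level was 3.58 (SE 0.07) below DMSO on the log2 scale, and the treated levels compared directly gave -0.04 (SE 0.05), which did not pass (adjusted p = 0.51, edgeR). LILRA5 showed part of this pattern, with a control gap of -2.01 (SE 0.19) and a direct difference of -2.00 (SE 0.10). CCR2 did not, with a control gap of 0.52 (SE 0.15) and a direct difference of -4.85 (SE 0.11).

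S100A8, a subunit of the myeloid protein calprotectin, and HSPA6, an inducible heat shock protein, fell with the inhibitor by 0.90 (SE 0.17) and 0.51 (SE 0.06) and rose with knockdown by 1.78 (SE 0.13) and 2.15 (SE 0.06). Primary granule proteins of immature myeloid cells were mixed. AZU1, ELANE and RNASE3 fell by 0.87 (SE 0.08), 0.78 (SE 0.06) and 0.65 (SE 0.07) with the inhibitor and rose by 0.75 (SE 0.07), 0.45 (SE 0.06) and 0.51 (SE 0.06) with knockdown. Of 20 granule and progenitor genes tested, the inhibitor raised 0 and lowered 11 (55%, beside 9.73% of all genes), and the knockdown raised 11 and lowered 7 (55% and 35%, beside 35.1% and 32.7%). Of these, 6 fell with the inhibitor and rose with knockdown, and 4 fell in both arms, among them the granule protease gene PRTN3, by 1.17 (SE 0.09) and 0.48 (SE 0.07). ZNF117 fell by 2.23 (SE 0.13) with the inhibitor and rose by 0.91 (SE 0.10) with knockdown. Its span overlaps the endogenous retroviral gene ERV3-1, so reads may be shared between them.

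All 12 genes named for the most positive differences rose with the inhibitor, and 11 of them fell with knockdown. Choosing genes by the largest difference favours such opposed changes, so this pattern is no separate result. FRMPD2, a scaffold protein with PDZ domains, was 3.52, 2.76 and 3.11 CPM in DMSO and 9.52, 9.15 and 7.95 CPM with UNC0638. It was 6.12, 5.71 and 5.20 CPM in scrambled cells, 0.337, 0.366 and 0.243 CPM with hairpin 2 and 0.402, 0.525 and 0.472 CPM with hairpin 4. No treated library overlapped its control. The inhibitor's rise of 1.49 (SE 0.11) and the knockdown's fall of -3.89 (SE 0.14) gave a difference of 5.37 (SE 0.18, adjusted p = 4.3e-18, edgeR). NTRK3, a neurotrophin receptor, rose by 1.16 (SE 0.12) and fell by 2.49 (SE 0.15). The keratin KRT9 and the heparan sulfate sulfotransferase HS3ST2 rose by 1.23 (SE 0.07) and 1.21 (SE 0.07) and fell by 1.70 (SE 0.07) and 1.67 (SE 0.08).

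CLEC5A, a myeloid lectin receptor, was far more abundant. It was 90.2, 83.7 and 78.2 CPM in DMSO and 104, 107 and 102 CPM with UNC0638. It was 87.1, 89.5 and 83.2 CPM in scrambled cells, 9.22, 9.49 and 9.70 CPM with hairpin 2 and 24.1, 26.5 and 25.7 CPM with hairpin 4. The controls overlapped each other, and the treated groups went to opposite sides of them. The rise was 0.31 (SE 0.04) and the fall -2.48 (SE 0.04), with a difference of 2.79 (SE 0.06, adjusted p = 1.6e-21, edgeR). The gene of the 12 that did not fall was PKD1L1, which rose by 2.95 (SE 0.11) with the inhibitor and did not pass with knockdown, at 0.21 (SE 0.16). CYP3A7, a fetal liver cytochrome, rose by 2.09 (SE 0.13) and fell by 0.70 (SE 0.14). IL7R, the interleukin 7 receptor and 1 of the 4 lymphoid markers tested, was 0.428, 0.190 and 0.275 CPM in DMSO, 2.66, 2.48 and 2.24 CPM with UNC0638 and at or below 0.674 CPM in every scrambled and hairpin library. Its difference was 3.49 (SE 0.54, adjusted p = 3.9e-06, edgeR).

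**Figure D3:**
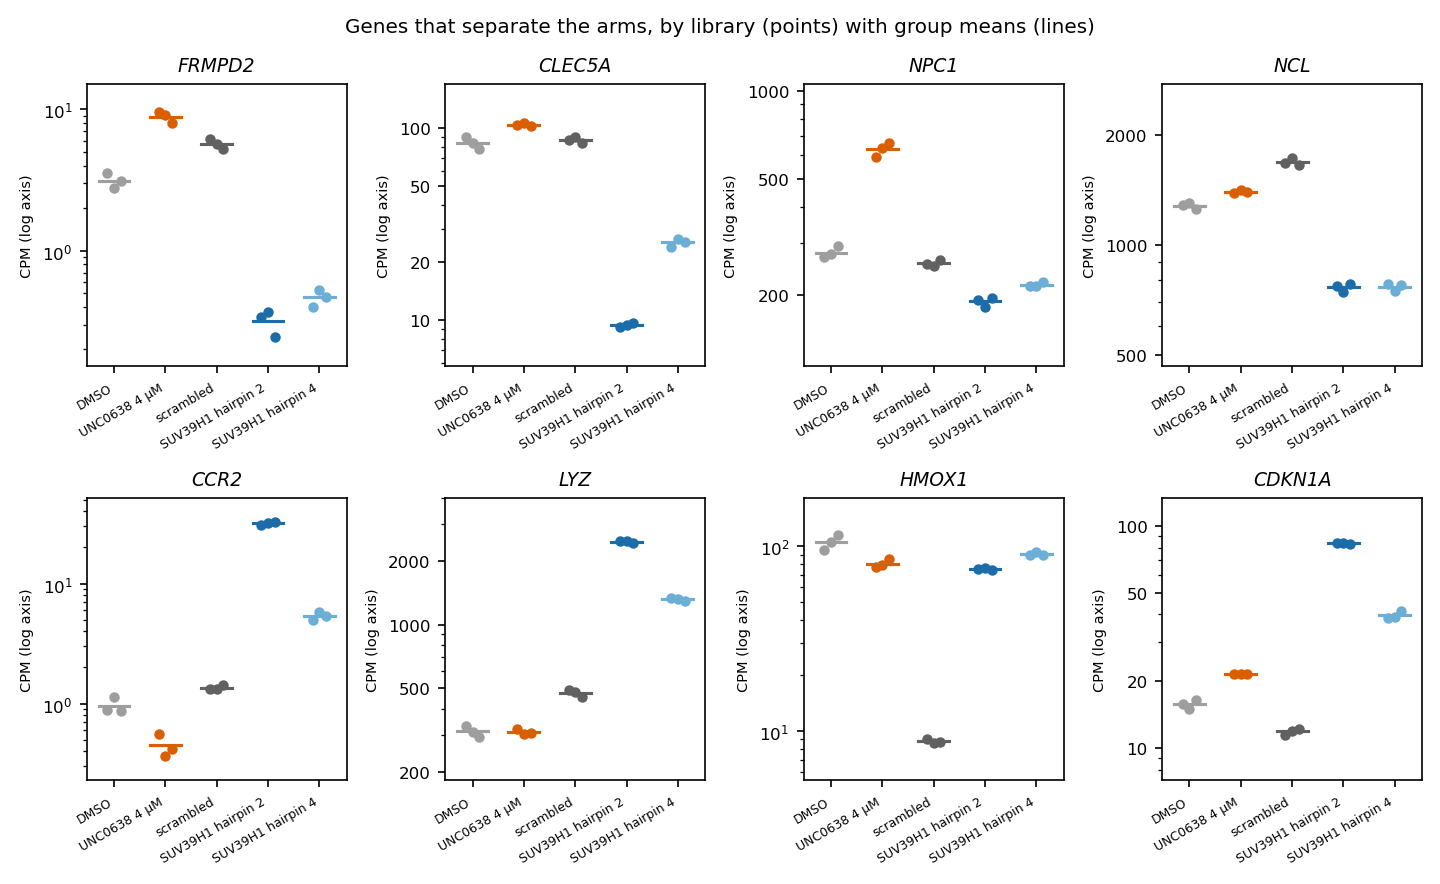
CPM on a log axis of 8 genes whose changes differ between the arms, in the 15 libraries, 3 points a group, with a line at each group's mean. For FRMPD2 and CLEC5A the UNC0638 points are the highest and the hairpin points the lowest, for CCR2, LYZ and CDKN1A the hairpin points are the highest, and for HMOX1 only the scrambled points stand apart, near 8.81 CPM.

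Ribosome biogenesis genes gave the most uniform contrast. All 32 fell with knockdown (median -0.88), with each hairpin alone as well (32.6% and 29.2% of all genes fell with hairpins 2 and 4), while the inhibitor raised 13 and lowered 0 (median 0.08). The difference was positive for all 32 (median 0.99), as was the direct comparison of treated levels. The scrambled control was above DMSO for 28 (median 0.33). NCL, which encodes nucleolin, was 1286, 1300 and 1257 CPM in DMSO, 1388, 1411 and 1394 CPM with UNC0638, and 1676, 1730 and 1654 CPM in scrambled cells. It was 772, 745 and 780 CPM with hairpin 2 and 783, 747 and 778 CPM with hairpin 4. The hairpin ranges overlapped each other and lay below all other libraries. NCL rose by 0.12 (SE 0.03) and fell by 1.14 (SE 0.03). MYC, a driver of ribosome genes, fell by 1.36 (SE 0.04) with knockdown against 0.01 (SE 0.04) with the inhibitor.

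Cell cycle arrest genes followed the knockdown. Of 23 genes of the p53 and arrest list, the knockdown raised 16 and lowered 3 and the inhibitor raised 2 and lowered 4. For the knockdown this is 69.6% and 13%, beside 35.1% and 32.7% of all genes, and for the inhibitor 8.7% and 17.4%, beside 10.2% and 9.73%. The difference was negative for 15 and positive for 1 (65.2% and 4.35%, beside 29.6% and 28.1%). CDKN1A, which encodes the cyclin kinase inhibitor p21, was 15.8, 15.1 and 16.6 CPM in DMSO, 21.6, 21.6 and 21.5 CPM with UNC0638, and 11.5, 12.0 and 12.2 CPM in scrambled cells. It was 84.1, 83.7 and 83.2 CPM with hairpin 2 and 38.4, 38.8 and 41.7 CPM with hairpin 4. CDKN1A rose in both arms, by 0.44 (SE 0.05) and 2.27 (SE 0.04). Of 44 cell cycle genes, the knockdown lowered 24 and raised 10 (54.5% and 22.7%) and the inhibitor lowered 7 and raised 3 (15.9% and 6.82%). Cyclin D2 (CCND2) fell by 1.38 (SE 0.04) with knockdown against 0.09 (SE 0.04).

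Sterol and lysosome genes differed between the arms in opposite directions, though with the inhibitor more genes of each list rose than fell. Of 23 sterol synthesis genes, the inhibitor raised 10 and lowered 2, the knockdown raised 2 and lowered 15, and the difference was positive for 15 and negative for 1 (65.2% and 4.35%, beside 28.1% and 29.6% of all genes). The scrambled control was above DMSO for 16 and below it for 0. INSIG1, which holds the sterol sensor in the endoplasmic reticulum, rose by 0.28 (SE 0.04) and fell by 1.06 (SE 0.04). Of 33 lysosome genes, the knockdown raised 25 and lowered 3 and the inhibitor raised 14 and lowered 2, with 21 negative and 3 positive differences (63.6% and 9.09%). The scrambled control was below DMSO for 22 and above it for 1. CTSD, the protease cathepsin D, rose by 0.36 (SE 0.07) and 1.94 (SE 0.07). NPC1, which exports cholesterol from lysosomes, had the largest of the 3 positive differences, and the others were CTSC and NEU1. It was 269, 275 and 293 CPM in DMSO and 592, 634 and 661 CPM with UNC0638. It was 256, 250 and 263 CPM in scrambled cells and 182 to 222 CPM over the 6 hairpin libraries. NPC1 rose by 1.17 (SE 0.04) with the inhibitor and fell by 0.34 (SE 0.04) with knockdown. Its partner NPC2 rose in both arms, by 0.21 (SE 0.04) and 1.13 (SE 0.04).

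For hypoxia and glycolysis genes the difference of changes and the direct comparison disagreed. Of 29 tested, the inhibitor lowered 21 and raised 0 (72.4% lowered, beside 9.73% of all genes). The knockdown lowered 17 and raised 9 (58.6% and 31%, beside 32.7% and 35.1%). In all, 10 fell in both arms, beside 2.36% of all genes. The scrambled control was below DMSO for 24 and above it for 0 (median -0.42). The difference of changes was positive for 10 and negative for 11 (34.5% and 37.9%, not far from the 28.1% and 29.6% of all genes). The treated level, by contrast, was higher with UNC0638 than in the hairpin mean for 25 and lower for 1 (32.7% and 33.3% of all genes). NDRG1, a hypoxia-induced gene, showed the reversal: its difference of changes was -1.50 (SE 0.08) and its direct difference 0.60 (SE 0.05), with a control gap of -2.11 (SE 0.06). GBE1, the glycogen branching enzyme, fell in both arms, by 0.71 (SE 0.04) and 0.77 (SE 0.04), a difference of 0.06 (SE 0.06, adjusted p = 0.37, edgeR), with a control gap of -0.80 (SE 0.04).

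Few strong falls were shared. Besides GBE1, the named genes lower in both arms were the zinc finger genes ZNF845 and ZNF134, MLC1, STAR, CD79A, EGR1 and FAM27A. ZNF845 fell by 1.14 (SE 0.13) and 0.80 (SE 0.10), and the immediate early factor EGR1 by 0.50 (SE 0.08) and 1.64 (SE 0.07). Of 369 zinc finger (ZNF) genes tested, the inhibitor lowered 125 and raised 11 (median -0.13), which is 33.9% and 2.98% beside 9.73% and 10.2% of all genes. The knockdown lowered 124 and raised 120 (median 0.01), and those shares of 33.6% and 32.5% lie near the 32.7% and 35.1% of all genes. That balance was a mean of hairpins that tilted apart. Hairpin 2 lowered 147 and raised 98 (median -0.06), and hairpin 4 lowered 78 and raised 139 (median 0.09). Of the 369, 146 were lower and 32 higher in hairpin 2 than in hairpin 4 (22% and 20.9% of all genes). In all, 42 of the 369 ZNF genes fell in both arms and 42 fell with the inhibitor and rose with knockdown, beside 2.36% and 5.24% of all genes. The immediate early gene FOS moved apart, falling by 0.68 (SE 0.06) and rising by 1.49 (SE 0.06).

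For the remaining lists, counts are to be read beside the shares of all genes: 10.2% raised and 9.73% lowered by the inhibitor, 35.1% and 32.7% by knockdown, and 28.1% positive and 29.6% negative differences. Of 27 inflammatory genes driven by NF-kB, the inhibitor raised 9 and lowered 1, the knockdown raised 20 and lowered 4 (74.1% and 14.8%), and TNFAIP3, a feedback inhibitor of that pathway, rose by 1.05 (SE 0.03) against -0.09 (SE 0.04). Of 11 myelomonocytic identity genes, the knockdown raised 9 and lowered 0 (81.8% raised) and the inhibitor raised 2 and lowered 3. Among 30 genes of the H3K9 methylation machinery, differences were positive for 12 and negative for 13 (40% and 43.3%). Of 43 replication-dependent histone genes tested of 89 listed, the inhibitor lowered 1 and raised 0 and the knockdown raised 11 and lowered 7 (25.6% and 16.3%), each below the share of all genes. That mean hid a split between the hairpins. Hairpin 2 raised 19 and lowered 2 (median 0.75), beside 34.5% and 32.6% of all genes. Hairpin 4 raised 3 and lowered 9 (median -0.16), beside 31.8% and 29.2%. Of 14 oxidative stress genes, 10 had negative and 2 positive differences (71.4% and 14.3%), with the scrambled control below DMSO for 9. Of 12 lipid genes, 4 were negative and 2 positive (33.3% and 16.7%), near or below the share of all genes. Of 27 stress response genes of the endoplasmic reticulum, 14 were negative and 9 positive (51.9% and 33.3%).

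**Figure D4:**
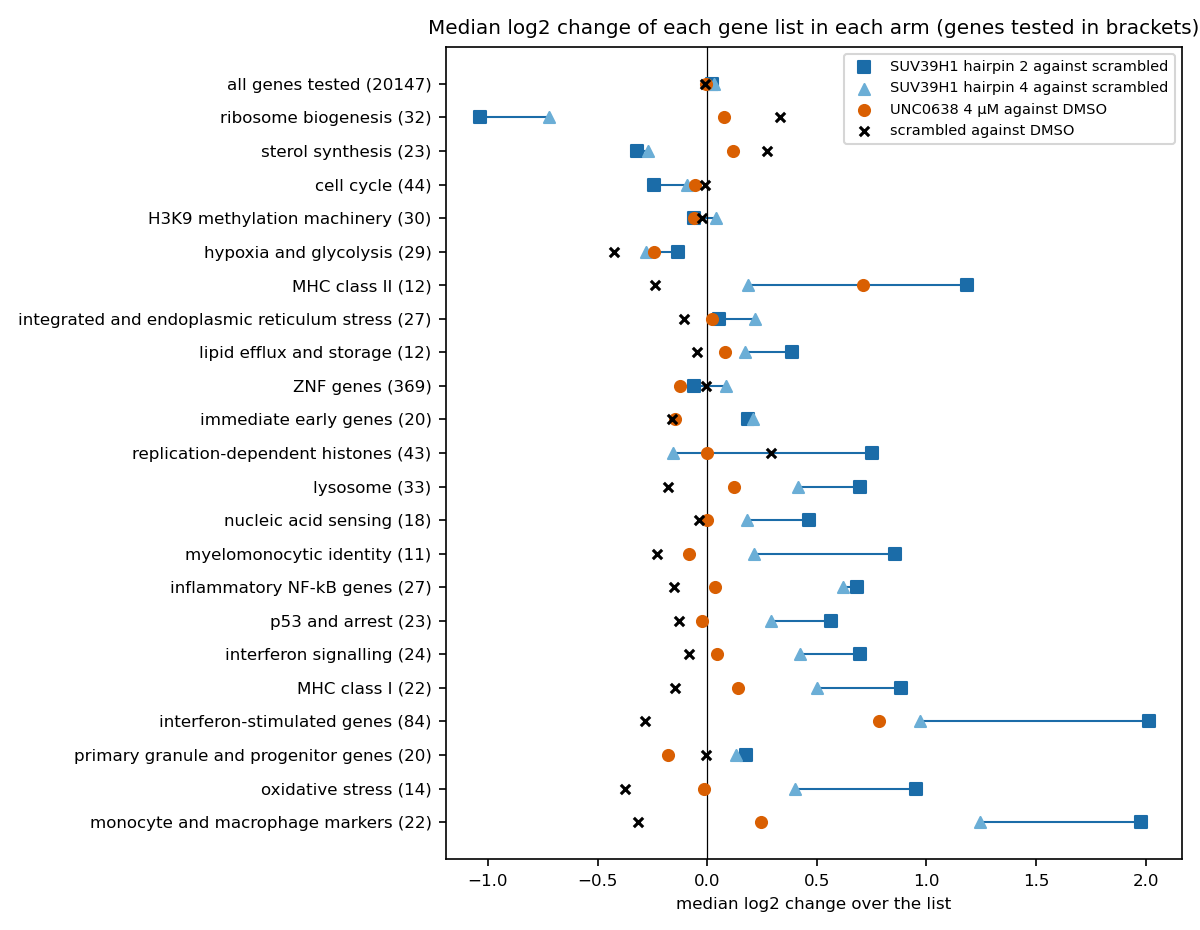
Median log2 change of each gene list against its own control for UNC0638 (circles), hairpin 2 (squares) and hairpin 4 (triangles), with the gap of scrambled from DMSO as crosses. For interferon-stimulated genes the medians are 0.79, 2.01 and 0.97 and the control gap -0.28. For ribosome biogenesis both hairpins lie below -0.70 and the inhibitor at 0.08, while all 20147 genes have medians near 0.

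On the gene table's scale, the difference between arms was called for a larger share of repeats than of genes, mostly negative. Of 992 repeat names, 929 were tested, with libraries scaled as in the gene table, which keeps any shift common to repeats in view. The inhibitor raised 24 and lowered 39 (2.58% and 4.2%, median -0.06), none of them 2-fold. The knockdown raised 701 and lowered 62 (75.5% and 6.67%, median 0.36), of which 32 and 2 changed at least 2-fold. The difference was positive for 52 and negative for 635 (5.6% and 68.4%). The medians of hairpins 2 and 4 were alike here, at 0.35 and 0.36, unlike those of their interferon-stimulated genes. Single repeats could differ, with 86 higher and 86 lower in hairpin 2 than in hairpin 4 (9.26% each). The controls were close, with 36 repeats higher and 46 lower in scrambled cells (3.88% and 4.95%).

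Summed over all repeat names, and on the CPM scale of the gene table, repeat counts were 59850 ± 1491 (SD, n = 3) in DMSO and 57481 ± 2376 (SD, n = 3) with UNC0638. They were 59287 ± 1009 (SD, n = 3) in scrambled cells, 71512 ± 2423 (SD, n = 3) with hairpin 2 and 73270 ± 423 (SD, n = 3) with hairpin 4. All 6 hairpin libraries stood above the other 9. The gene table's scale decides these counts: with the repeat table scaled by itself, the inhibitor raised 62 and lowered 33, the knockdown's calls fell from 701 higher to 244, and the difference was positive for 194 and negative for 186. Changes of single repeats below are therefore to be read against the all-repeat medians of -0.06 and 0.36. The counts are of repeat names, and reads from repeats inside transcribed genes are not separated here from those of repeats transcribed on their own.

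**Figure D5:**
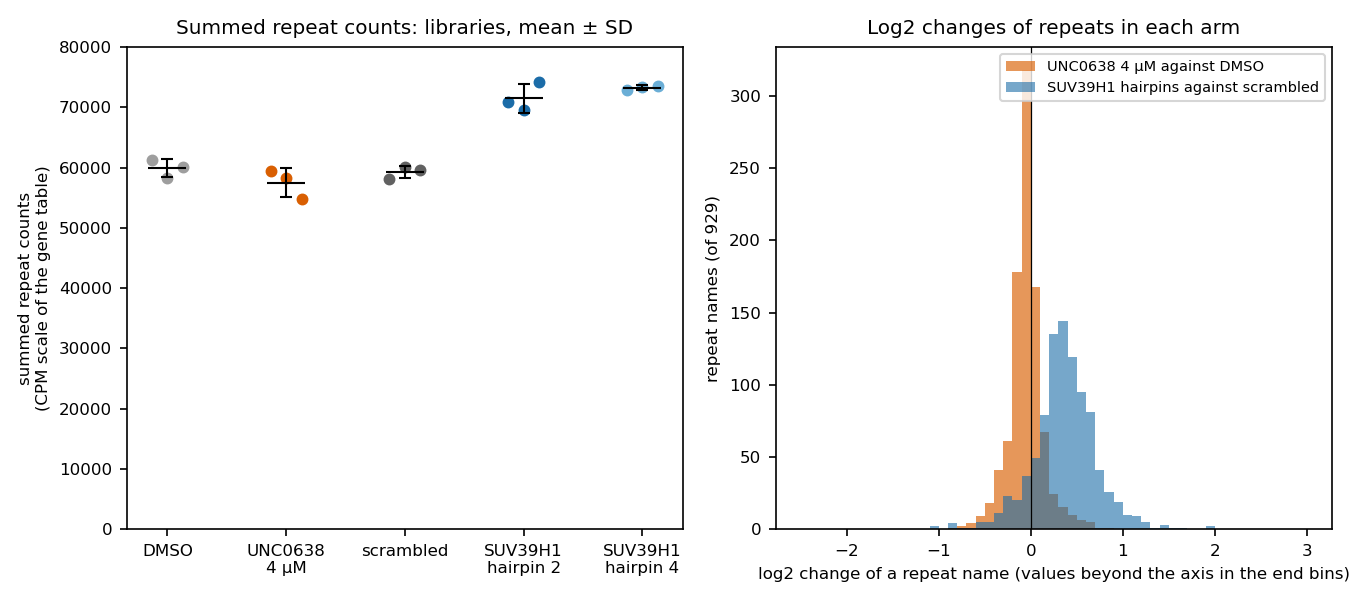
Left, summed repeat counts on the CPM scale of the gene table in the 15 libraries, 3 points a group with the mean and SD, where the 6 hairpin libraries lie above all others. Right, log2 changes of 929 repeat names in each arm, centred near -0.06 with the inhibitor and near 0.36 with knockdown.

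Only 12 repeats rose and 2 fell in both arms (1.29% and 0.215% of those tested), while 8 rose with the inhibitor and fell with knockdown and 31 did the reverse (0.861% and 3.34%). Without 4 µM UNC0638 replicate 2, 7 repeats rose in both arms. The 12 were 1.71% of the knockdown's risers and came from the inhibitor's 24, beside 75.5% of all repeats raised by knockdown. FAM, the monomer ancestral to Alu elements, was the most abundant named shared riser. It stood at 153, 140 and 146 CPM in DMSO, 202, 207 and 196 CPM with UNC0638 and 140, 139 and 141 CPM in scrambled cells. With hairpin 2 it was 347, 349 and 366 CPM and with hairpin 4 it was 214, 211 and 208 CPM. FAM rose by 0.46 (SE 0.04) and 0.96 (SE 0.04), a difference of -0.50 (SE 0.05, adjusted p = 5.2e-09, edgeR). The long terminal repeats MamGypLTR2c, MER51C and LTR67B rose by 0.54, 0.37 and 0.35 with the inhibitor and by 1.39, 0.86 and 0.47 with knockdown. The satellite SST1 fell in both arms, by 0.60 (SE 0.06) and 0.88 (SE 0.05), with the scrambled control 0.75 (SE 0.06) below DMSO, and LTR13_ by 0.55 (SE 0.09) and 0.50 (SE 0.07).

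Among repeat classes, young LINE-1 elements, the autonomous retrotransposons, had 17 of 18 names raised by knockdown and 0 by the inhibitor, with a median difference of -0.59. Of 85 older LINE-1 names, 79 had a negative difference and 1 a positive one (median -0.42). Of 36 Alu names, 31 had a negative difference (median -0.39), and of 97 DNA transposon names 64 were negative and 7 positive. These medians lie near the -0.41 of all repeats. The MER61 group, long terminal repeats, had 3 positive and 2 negative differences among 7 names.

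The most negative differences of single repeats were HSAT4, a satellite (-1.61, SE 0.14), Ricksha_0, a DNA transposon (-1.56, SE 0.15), and HERVK11-int, an endogenous retrovirus (-1.36, SE 0.17). HSAT4 was 5.01, 4.25 and 4.36 CPM in DMSO, 3.76, 3.99 and 3.17 CPM with UNC0638 and 3.20, 3.82 and 3.24 CPM in scrambled cells. It was 9.20, 8.27 and 8.92 CPM with hairpin 2 and 7.31, 8.22 and 8.41 CPM with hairpin 4. Hairpin libraries stood above all others. HSAT4 rose by 1.28 (SE 0.09) with knockdown, and its inhibitor change of -0.33 (SE 0.11) did not pass (adjusted p = 0.054, edgeR). The composite retrotransposon SVA_E fell by 0.52 (SE 0.13) and rose by 0.75 (SE 0.10). The most positive differences were Eulor9A (1.2, SE 0.14), LTR21A (1.07, SE 0.09) and HAL1-3A_ME (0.99, SE 0.07). All of these fell with knockdown and did not pass with the inhibitor. Eulor9A fell mostly with hairpin 2, at -1.90 (SE 0.135), against -0.25 (SE 0.10) with hairpin 4. Its difference against hairpin 4 alone was 0.37 (SE 0.14), so its rank rests largely on hairpin 2.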

How the data were processed

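RNA from U937 cells was sequenced from unstranded TruSeq RNA v2 libraries. Counts per gene and per repeat name were deposited by the authors, and per the submitters' processing notes they came from STAR and featureCounts, with hg19 as the build. Tool versions: not given in the sources used here. Replicate libraries of a group differed by more than counting noise (chi-square per degree of freedom 2.08 to 22.1), so none was merged.

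Features were kept by filterByExpr (minimum count 10, minimum total 15). All 24 libraries were fitted with a mean per group (16 residual degrees of freedom) in edgeR 4.0.16 with limma 3.58.1 and R 4.3.3, with TMM scaling and quasi-likelihood tests of contrasts. Repeats used the gene table's library sizes and factors. The common dispersion of genes, 0.00215, is a coefficient of variation of 4.63%. The fit was tested on simulated data. Of the gene names, 122 stand in more than 1 place in the genome.

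Named genes were the 4 methyltransferases, the largest shared, opposed and differing changes that were called with each hairpin alone at a mean of at least 2 CPM, up to 4 genes with the smallest p of each list, and the interferon signalling list. Genes of the interferon-stimulated, sensing, antigen presentation, granule, lysosome, p53 and stress lists beyond these are given as examples of their list and were chosen after their values were seen. Members and lists were chosen with earlier results of these data known. Promoters were matched by symbol: 11320 of the 20147 genes tested had an entry. Alternatives included DESeq2 1.42.0, other scaling, filters, doses, hairpins and thresholds, a replicate block and leaving out each library. Some results of single genes are not reported here.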

Additional observations from a re-analysis of the deposited data

Results flagged for a closer look

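The SUV39H1 hairpins differed from each other, hairpin 2 minus hairpin 4, by at least 2 on the log2 scale for 7 of the 47 genes named for shared, opposed or differing changes, by edgeR's test of that difference. The value was 4.66 (SE 0.17, adjusted p = 1.57e-16, edgeR) for IFI44L. For the other interferon genes it was 3.50 for OAS2, 3.13 for IFI44, 2.76 for CXCL11 and 2.63 for IFI27, and it was 2.56 for CCR2 and 2.15 for SLCO2B1, all with hairpin 2 higher. Of the 47 genes, 40 differed between the hairpins, 28 of them with hairpin 2 higher. Over all genes tested, 20.9% were higher and 22% lower in hairpin 2 than in hairpin 4. IFI44L and OAS2 met the rule of a mean of at least 2 CPM largely through hairpin 2. Their means were 8.84 and 9.12 CPM there, against 0.35 and 0.81 CPM with hairpin 4, so their gaps are tied to that rule.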

How the results depend on the processing

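The counts of positive and negative differences between arms moved little: leaving out each library gave 5399 to 5892 positive and 5601 to 5955 negative genes, and DESeq2 gave 5613 and 5374. Counts that need a call in both arms moved more, and DMSO libraries moved them most. Leaving out each library gave 673 to 1013 genes higher in both arms. It gave 333 to 789 lower in both, 489 to 1305 higher with the inhibitor and lower with knockdown, and 667 to 1273 the reverse. For genes lower in both, 789 came without DMSO replicate 1. For genes higher with the inhibitor and lower with knockdown, 1305, 526 and 489 came without DMSO replicates 1, 2 and 3, and for the reverse 667 came without DMSO replicate 3. Repeats higher in both arms ran from 7 (without 4 µM replicate 2) to 14. With 2 µM in place of 4 µM the counts were 346 higher in both, 139 lower in both, 254 and 396 opposed, and 3 repeats higher in both. At an adjusted p under 0.01 they were 230 lower in both, 386 and 566 opposed, and 5 repeats higher in both. With the repeat table scaled by itself, 194 differences were positive, 186 negative and 8 repeats fell in both arms. The cause of these shifts was not tested.

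Replicate numbers were not taken as pairs, since the labels give no shared source and only 20 of 30 same-number pairs had correlated deviations over 0.1. Deviations were more alike within a number than across numbers (mean correlation 0.25 against -0.13), and 10 of 15 libraries correlated best with their own number, which is a hint of a shared replicate effect from the data and not from the design. With the replicate number as a block, 5872 differences were positive and 6127 negative, 928 genes rose and 578 fell in both arms, 1010 and 1196 were opposed, and repeats gave 54 positive and 639 negative differences and 14 higher in both.

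Of 430 values of named genes and repeats, 358 kept their direction and call in each alternative run, and 20 changed sign in at least 1. Differences changed sign against hairpin 4 alone for IFI44L (1.82), OAS2 (1.68), CXCL11 (1.22), ISG15 (0.52), IFNB1 (0.12), LTR67B (0.10), IFNGR1 (0.06) and SST1 (-0.14), as did the knockdown change of HIST1H2BK (-0.17). Against hairpin 2 alone they did so for ZNF134 (0.20), CD79A (0.11) and ZNF845 (0.038). At 2 µM they did so for IFI27 (-0.11) and IFNGR2 (-0.049), as did the inhibitor change of HEXA (-0.007). With treated groups compared directly, chosen after seeing the data, they did so for PFKFB4 (0.85), NDRG1 (0.60), OAS2 (0.51), KDM3A (0.33), CD79A (0.22), ISG15 (0.19) and SLC2A3 (0.035). With repeats scaled by themselves they did so for LTR13_ (0.34) and LTR67B (0.27). Leaving out each library gave -0.35 to 0.10 for OAS2, -0.28 to 0.059 for CXCL11, -0.022 to 0.071 for IFNGR2 and -0.12 to 0.005 for LTR13_. None of these passed the test where the sign changed on leaving out a library.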
